A study of Rattus norvegicus with 30 samples.

Results

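Npy, Prr15l, Eva1c, Calml4, Sgsm2, Xpnpep2, Slc17a2, Abca8a and Slc13a2 are 9 rat genes whose transcripts stood low in cultured hepatocytes given WY-14643, or stood far apart between its doses. They were chosen from these same arrays for large differences from vehicle or between doses, among genes that stand in no list of metabolic genes. Their treated and dose values are therefore a description, with no test. They make up 9 of the 11545 genes measured, and each is read by 1 of the 31099 probe sets of the array (a probe set is a group of short probes summarised as 1 signal). All 9 passed the filter on low signals, which asks for a signal above 281.361 in at least 5 of the 30 arrays. For 6 of the 9 fewer than 5 of the 20 treated wells were above that signal, so these passed with the help of their vehicle wells: Prr15l and Xpnpep2 had 0 such wells, Eva1c 1, Slc17a2 2, and Calml4 and Sgsm2 4 each. The name given to the group, strongly repressed genes, held for 8 of the 9, whose mean log2 signal lay below vehicle in all 4 treated groups. It did not hold for Slc13a2, whose mean was well below vehicle only at 8 µM and 48 h.

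WY-14643, or pirinixic acid, is a synthetic ligand of the nuclear receptor PPARα. Purchased frozen hepatocytes from male Sprague Dawley rats were cultured in collagen-coated wells under a Matrigel overlay, and total RNA was read on an Affymetrix rat array. The 6 groups were vehicle (1% DMSO), 8 µM and 200 µM WY-14643, each harvested 24 h and 48 h after dosing, with n = 5 wells a group. The labels call the wells independent cultures and do not say that they came from different animals, and the errors and p-values here measure the spread between wells. No genotype or second agent separated the groups, and all were untransfected primary cells that can hold other liver cells.

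PPARα pairs with the retinoid X receptor and binds direct repeats in DNA, and in rodent liver its ligands raise the genes of fatty acid oxidation. Other liver transcripts decline under such ligands. The 9 genes were grouped by their values and not by a pathway, and whether they share one was not tested. Npy encodes a secreted peptide, Calml4 and Eva1c proteins linked to adhesion and guidance at the cell surface, and Sgsm2 a regulator of Rab proteins. Xpnpep2 encodes a peptidase, and Slc17a2, Abca8a and Slc13a2 encode membrane transporters. The known response was present, since the PPARα targets Cpt1a (log2 difference from vehicle 2.83 to 2.97), Pdk4 (3.47 to 3.66), Ehhadh (4.76 to 5.56) and Acot1 (7.73 to 8.69) rose in all 4 treated groups by limma, with adjusted p of 6.6e-17 at most.

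To show the DNA just upstream of these genes, the 250 bases before the start of transcription were taken from RefSeq on GRCr8. An entry was found for 6 of the 9 members. Prr15l, Slc17a2 and Abca8a had no entry. Of the 6, the windows of Npy and Sgsm2 are printed because they hold motif matches, and those of Calml4 and Slc13a2 because these members differed most between doses at 48 h and hold none. Each is written 5′ to 3′ on the strand of its gene, and capitals mark matches to GGGCGG or CCAAT on either strand.
Npy, chr4:80211861-80212110, plus strand: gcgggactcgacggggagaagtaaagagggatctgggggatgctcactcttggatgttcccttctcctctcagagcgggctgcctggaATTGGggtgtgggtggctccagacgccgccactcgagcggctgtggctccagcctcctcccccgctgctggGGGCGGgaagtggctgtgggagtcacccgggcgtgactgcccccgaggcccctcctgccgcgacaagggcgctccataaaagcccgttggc
Sgsm2, chr10:60257818-60258067, minus strand: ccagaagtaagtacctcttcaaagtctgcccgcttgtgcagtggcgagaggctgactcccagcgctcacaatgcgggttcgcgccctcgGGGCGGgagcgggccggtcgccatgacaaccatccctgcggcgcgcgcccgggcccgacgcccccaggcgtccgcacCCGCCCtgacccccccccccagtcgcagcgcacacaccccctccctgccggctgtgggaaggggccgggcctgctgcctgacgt
Calml4, chr8:72218636-72218885, plus strand: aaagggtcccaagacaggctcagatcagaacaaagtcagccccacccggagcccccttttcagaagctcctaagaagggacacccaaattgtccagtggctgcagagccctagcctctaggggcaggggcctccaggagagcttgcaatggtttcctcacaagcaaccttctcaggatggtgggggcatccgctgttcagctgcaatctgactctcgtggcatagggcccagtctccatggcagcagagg
Slc13a2, chr10:63817185-63817434, minus strand: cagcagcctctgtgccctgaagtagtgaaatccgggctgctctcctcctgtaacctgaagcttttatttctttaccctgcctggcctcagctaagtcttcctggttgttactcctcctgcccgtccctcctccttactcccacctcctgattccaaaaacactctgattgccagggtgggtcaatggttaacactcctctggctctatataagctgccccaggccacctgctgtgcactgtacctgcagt
The Npy window held GGGCGG 91 to 86 bases before the start and CCAAT on the opposite strand 162 to 158 bases before it. The Sgsm2 window held GGGCGG 161 to 156 bases before the start, and again on the opposite strand 84 to 79 bases before it. The first listed Eva1c start had GGGCGG 87 to 82 bases before it, and the Xpnpep2 window, which lies inside the annotated span of that gene, held no match. GGGCGG is in 30.5% and CCAAT in 34.0% of all 33469 RefSeq windows of this length. The other motifs searched, on both strands, were in none of the 6 windows. They were DR1 (the direct repeat of AGGTCA with 1 base between that PPARα binds, in 0.0508% of all windows), its single unit AGGTCA (14.1%), CAAAGTCCA (an HNF4 motif, 0.338%), the HNF1 palindrome (0.00299%), TATAAA (12.9%), TGACGTCA (1.59%) and TGANTCA (6.34%). AGGTCA also lies inside the direct repeat. A missing match says only that these letters are not in this window. The GC content was 67.6% for Npy, 72.8% for Sgsm2, 61.6% for Eva1c, 58.0% for Calml4, 55.2% for Xpnpep2 and 53.6% for Slc13a2, against a median of 51.2% over all windows.

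The array of 48 h vehicle replicate 4 stood apart from the other 29. Its median signal was 765, and 73.9% of its probe sets were above the filter signal, while the other 48 h vehicle arrays had medians of 396 to 421 and shares of 58.2% to 60%. Its median correlation with its own group was 0.896, against 0.977 to 0.978 for the other 4. For 6 members this array sat at one end of the 48 h vehicle group, lowest for Eva1c, Sgsm2, Slc17a2 and Abca8a and highest for Xpnpep2 and Slc13a2. Each member's 48 h difference from vehicle is therefore also given without it, and for named relatives it is given where leaving it out changed a call. Replicate numbers follow accession order, since the labels give none. Of the hepatocyte markers 5 of 6 were kept (Tf had no probe set). Their summed signal ranged over 339100 to 403900 in 24 h vehicle wells, 311300 to 341500 with 8 µM and 312600 to 352900 with 200 µM, with overlap. In 48 h wells the sums were 258700 to 383900 for vehicle, 241000 to 280500 for 8 µM and 235800 to 274400 for 200 µM. The vehicle range began at 337100 without replicate 4, above all wells of both doses. Stellate cell markers summed lower at 200 µM than in vehicle at both times, with no overlap, and at 8 µM with no overlap at 48 h. Their summed signal (4 of 6 kept, with Pdgfrb and Lrat below the filter) ranged over 2463 to 3126 in 24 h vehicle, 1762 to 2613 with 8 µM and 1685 to 2101 with 200 µM. The 48 h ranges were 2843 to 4724 in vehicle (at most 3542 without replicate 4), 2193 to 2579 with 8 µM and 2080 to 2352 with 200 µM. Bile duct markers (2 of 5 kept, with Krt7 and Spp1 below the filter) summed lower at 200 µM than in vehicle at 24 h, with no overlap, at 6644 to 7753 against 7973 to 10010, and at 7563 to 8596 with 8 µM. At 48 h they overlapped, at 9203 to 13120 for vehicle (at least 12190 without replicate 4, above both doses), 10670 to 11900 for 8 µM and 9511 to 10500 for 200 µM. The sums of macrophage markers (4 of 6 kept, with Adgre1 below the filter; 1862 to 4252 over all wells) and endothelial markers (4 of 5 kept; 1019 to 2840) overlapped between each dose and vehicle at both times. The part of these cells in the members' values was not tested, and fewer cells of a type cannot be told apart from less RNA per cell.

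At 24 h all 9 members had a mean log2 signal below vehicle at both doses. The 5 treated wells all lay below the 5 vehicle wells for 6 of 9 members at 8 µM, while 12.1% of all genes met that condition, and for 7 of 9 at 200 µM, against 11.5%. The median difference over the 9 was -1.80 at 8 µM and -1.99 at 200 µM, while the medians over all genes were -0.03 and -0.02. Differences are of log2(signal + 16), with the standard error (SE) of the fit, and this scale understates the change of low signals. At 48 h the groups were separate for 5 of 9 members at 8 µM, against 10.1% of all genes, and for 4 of 9 at 200 µM, against 9.55%. Without vehicle replicate 4 these counts were 7 of 9 (16.6% of all genes) and 8 of 9 (16.3%). The median over the members was -1.80 at 8 µM and -1.36 at 200 µM. By limma with Benjamini-Hochberg adjustment, 24.9% of all genes changed in either direction at 8 µM and 24 h, 24.7% at 200 µM and 24 h, 35.6% at 8 µM and 48 h and 33.8% at 200 µM and 48 h. Since the members were picked on these contrasts, nothing is read from their counts against these shares.

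**Figure D1:**
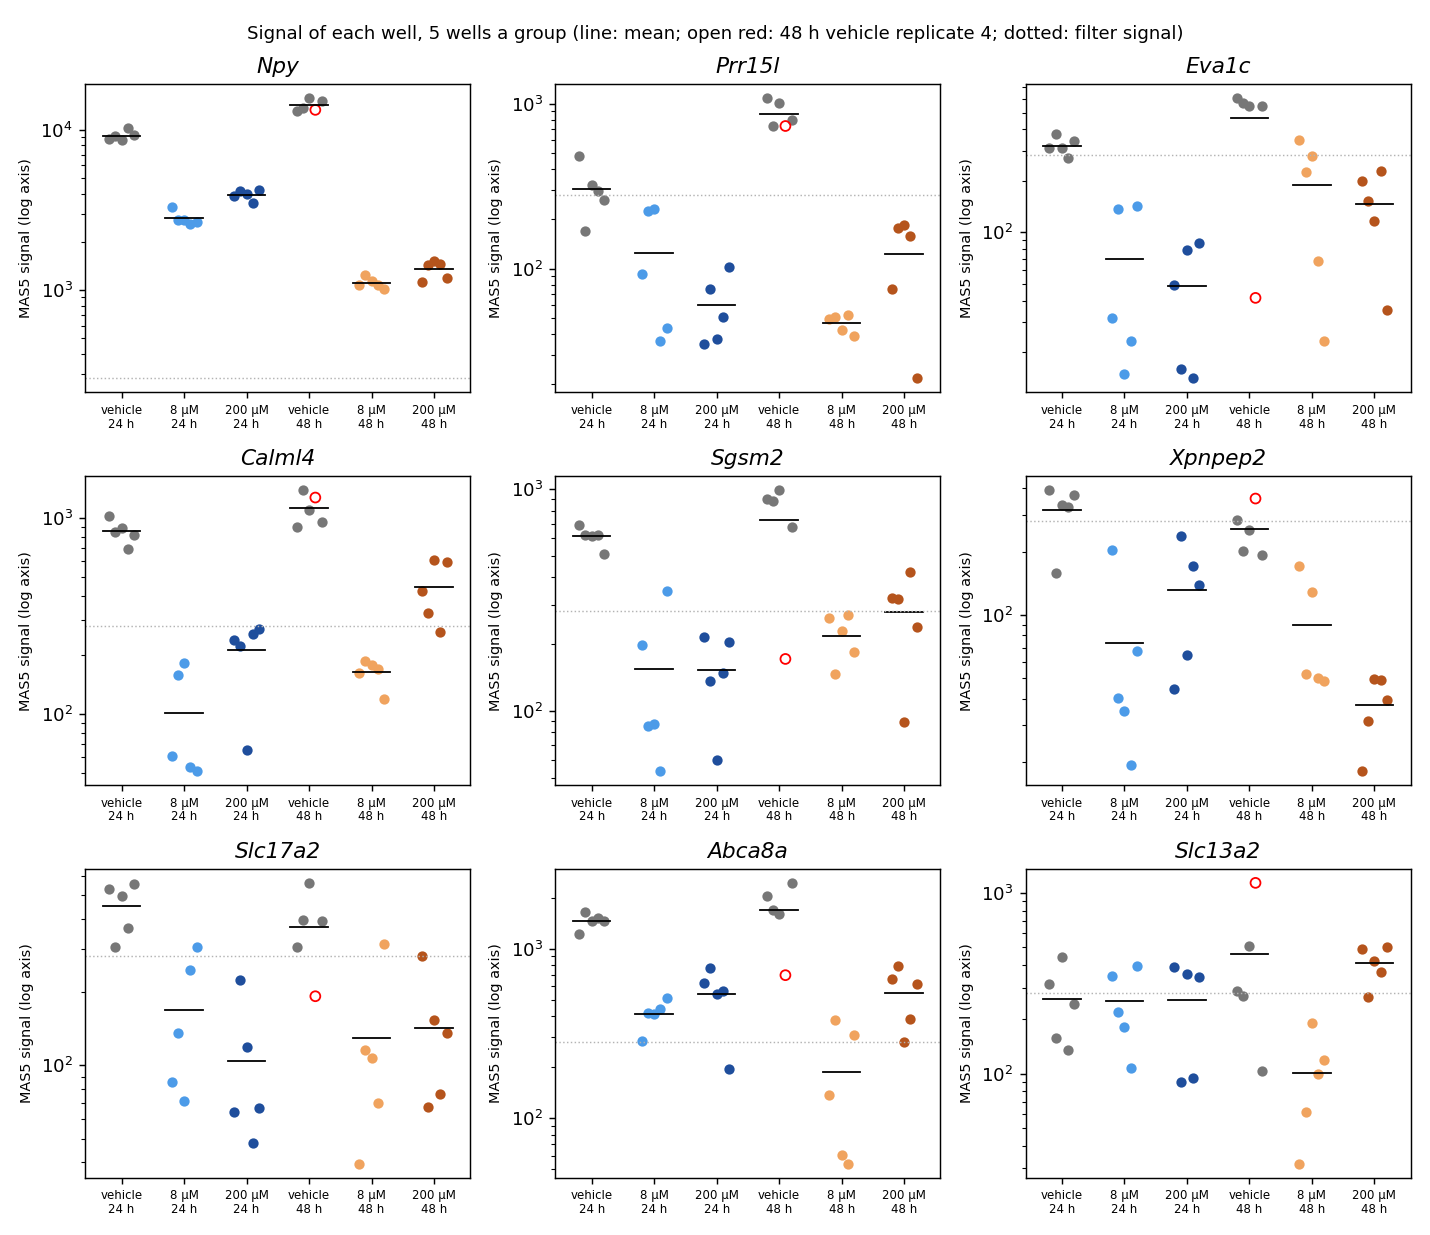
Signal of each well (points, log axis) for the 9 genes in the 6 groups of 5 wells, with the group mean as a line, 48 h vehicle replicate 4 as an open red circle and the filter signal of 281.361 as a dotted line. Npy wells form tight groups far above the filter, from 1016 to 15849. Of 20 treated wells, 15 lie above the filter for Abca8a and 9 for Slc13a2, while most treated wells of the other genes lie near or below it.

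Npy, neuropeptide Y, is a peptide of neurons and the adrenal medulla that acts through Y receptors on appetite and vascular tone. Its probe set (1387154_at) was bright in these cultures. At 24 h the vehicle wells had signals of 8693, 9158, 8585, 10196 and 9241. The wells at 8 µM had 3283, 2730, 2752, 2595 and 2650. Those at 200 µM had 3879, 4133, 3953, 3479 and 4188. The 3 groups did not overlap, and the higher dose stood between vehicle and the lower dose. At 48 h the vehicle wells had 13180, 13685, 15849, 13304 and 15152. Signals at 8 µM were 1082, 1238, 1139, 1071 and 1016. Signals at 200 µM were 1125, 1434, 1526, 1463 and 1189. Both doses were far below vehicle at 48 h, and they overlapped each other. Mean signals were 9174 ± 638 (SD, n = 5) in vehicle, 2802 ± 276 at 8 µM and 3926 ± 280 at 200 µM after 24 h. After 48 h they were 14234 ± 1200, 1109 ± 84.1 and 1347 ± 179. As ratios of mean signals, vehicle stood 3.27 times the 8 µM level and 2.34 times the 200 µM level at 24 h, and 12.8 and 10.6 times at 48 h.

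On the log2 scale Npy was at -1.71 ± 0.08 (SE) at 8 µM and -1.22 ± 0.08 at 200 µM after 24 h. After 48 h it was at -3.66 ± 0.08 and -3.39 ± 0.08, or -3.69 and -3.42 without vehicle replicate 4. Among all genes it ranked 29th and 82nd from the lowest difference at 24 h, and 4th and 3rd at 48 h. In order of level the groups ran 48 h vehicle, 24 h vehicle, 200 µM at 24 h, 8 µM at 24 h, 200 µM at 48 h and 8 µM at 48 h. Only the last 2 neighbours overlapped. The 5 wells at 200 µM were all above the 5 at 8 µM after 24 h, by 0.49 ± 0.08, and 3.36% of all genes met that condition. Npy was the only member that did. Its spread within groups was a log2 SD of 0.13, and 24.1% of genes had a smaller one. The other 8 members had SDs of 0.52 to 1.07, against a median of 0.20 over all genes.

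The other measured genes of the Npy system were the receptors Npy2r and Npy4r and the peptidase Dpp4, which trims neuropeptide Y and shifts its receptor preference. Pyy, Ppy, Npy1r and Npy5r were below the filter, and Npy6r had no probe set of its own. Dpp4 fell in all 4 treated groups. Its signal was 7305 ± 277 in 24 h vehicle wells, 4980 ± 164 at 8 µM (log2 difference -0.55 ± 0.09, limma adjusted p = 1.8e-05) and 5503 ± 410 at 200 µM (-0.41, adjusted p = 0.00095). The 48 h differences were -0.75 (adjusted p = 5.2e-08) and -0.64 (adjusted p = 1.2e-06). Npy2r was at 0.74 (limma adjusted p = 0.22) and 1.13 (0.057) at 48 h, and without vehicle replicate 4 it rose at both doses, by 1.21 (0.021) and 1.59 (0.0027). All its group means lay below the filter signal, with 137 ± 145 in 48 h vehicle wells. Its means were 244 at 8 µM and 224 at 200 µM after 24 h, and 197 and 228 ± 45.9 after 48 h. Without that replicate, Npy2r also fell in vehicle wells from 24 h to 48 h (-1.37, limma adjusted p = 0.029). Npy4r passed in no treated contrast.

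Prr15l, a proline-rich protein of little known function (probe set 1383879_at), was brightest in 48 h vehicle wells. At 24 h its vehicle signals were 481, 170, 323, 295 and 259. With 8 µM they were 92.4, 223, 230, 36.6 and 43.9. With 200 µM they were 34.9, 75.0, 37.6, 51.0 and 102. At 24 h the vehicle group overlapped with 8 µM and not with 200 µM. After 48 h vehicle wells had 1088, 728, 1003, 733 and 793. In 8 µM wells they were 49.8, 51.3, 42.4, 52.5 and 39.2. In 200 µM wells they were 75.4, 177, 185, 157 and 21.6. Both doses were well below every vehicle well at 48 h, and the wells at 8 µM lay close together. Differences from vehicle were -1.41 and -2.08 at 24 h and -3.80 and -2.88 at 48 h (each ± 0.46, SE), or -3.85 and -2.94 at 48 h without vehicle replicate 4. At 48 h Prr15l ranked 3rd and 4th from the lowest of all genes. A pseudocount of 64 in place of 16 moved the 48 h value at 8 µM to -3.06.

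The relative Prr15 went the other way. From 2649 ± 204 in 24 h vehicle wells its signal was up to 4346 ± 190 with 8 µM and 4114 ± 293 with 200 µM. The 48 h means were 2738 ± 267 for vehicle, 5573 ± 232 for 8 µM and 4995 ± 450 for 200 µM. Prr15 rose in all 4 groups by limma, by 0.71 (adjusted p = 7.3e-10), 0.63 (1.1e-08), 1.03 (7.4e-14) and 0.86 (6.8e-12), each ± 0.07.

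Eva1c encodes a membrane protein that binds heparin and is a relative of a Slit receptor in worms. Its probe set (1390336_at) had the widest spread within groups of the 9, and 99.7% of genes had a smaller one. At 24 h its vehicle signals were 310, 376, 309, 271 and 340. The wells at 8 µM had 31.6, 137, 15, 23.2 and 143. Those at 200 µM had 49.1, 16, 79.1, 14.1 and 87.0. Neither dose overlapped with vehicle at 24 h, and the doses overlapped each other. Vehicle signals at 48 h were 610, 567, 548, 41.5 and 548. Signals at 8 µM were 344, 226, 277, 68.3 and 23.4. Signals at 200 µM were 201, 153, 116, 228 and 35.4. Replicate 4, at 41.5, was the only vehicle well that reached into the treated range. The 24 h differences were -2.31 and -2.55 (each ± 0.65), which ranked 5th and 2nd from the lowest. At 48 h they were -1.26 and -1.36, or -1.93 and -2.03 without that well. A pseudocount of 64 in place of 16 gave 24 h values of -1.65 at 8 µM and -1.82 at 200 µM.

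Eva1a, a relative that takes part in autophagy and cell death, differed between the doses. It rose at 8 µM, by 0.26 at 24 h (limma adjusted p = 0.03) and 0.60 at 48 h (2.4e-06). At 200 µM and 24 h it fell by 0.35 (0.0038), and at 48 h it rose by 0.25 (0.029). That last value was 0.12 (0.14) without vehicle replicate 4. The wells at 200 µM were below those at 8 µM by limma at both times, at -0.61 (4.5e-05) and -0.34 (0.021). Eva1b was below the filter.

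Calml4 is a calmodulin-like protein that serves as a light chain of the myosin Myo7b in the complex that links brush border microvilli. At 24 h the vehicle wells of its probe set (1375026_at) had 1025, 849, 883, 690 and 822. With 8 µM they were 61.1, 158, 183, 53.6 and 51.1. With 200 µM they were 238, 223, 65.3, 256 and 272. No treated well reached a vehicle well, and 4 of the 5 wells at 200 µM were above all wells at 8 µM. At 48 h the vehicle wells had 898, 1383, 1100, 1270 and 958. In 8 µM wells they were 162, 186, 177, 170 and 119. In 200 µM wells they were 426, 326, 609, 261 and 597. At 48 h the 3 groups were fully separate, with 200 µM in the middle. The differences from vehicle were -3.05 and -2.05 at 24 h and -2.67 and -1.36 at 48 h (each ± 0.32), or -2.62 and -1.31 at 48 h without vehicle replicate 4. At 8 µM and 24 h Calml4 ranked 2nd from the lowest of all genes. The doses differed by 0.99 at 24 h and 1.31 at 48 h, and the latter ranked 9th from the highest. At 48 h Calml4 and Slc13a2 were the members whose wells at 200 µM all lay above those at 8 µM, a condition met by 3.79% of all genes.

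Of the 5 other genes listed for that microvillar complex 4 were measured, and 2 of them fell in each of the 4 treated groups (medians -0.16, -0.20, -0.34 and -0.22). Anks4b, a scaffold of the complex, fell, with differences of -0.60 and -0.64 at 24 h and -0.72 and -0.42 at 48 h (each ± 0.09, limma adjusted p = 1.2e-07 to 0.00046). Its signal was 2798 ± 213 in 24 h vehicle wells and 1855 ± 261 at 8 µM. The cadherin Cdhr2 fell too, with differences of -0.37 and -0.39 at 24 h and -0.49 and -0.52 at 48 h (each ± 0.12, limma adjusted p = 0.00085 to 0.02). Its partner Cdhr5 was between -0.19 and 0.11 and the motor Myo7b between -0.12 and 0.12, and neither passed. Ush1c was below the filter. Among calmodulins, Calm2 fell in all 4 groups (-0.43 to -0.58, limma adjusted p = 1.2e-08 to 4.8e-06) and Calml5 passed in none.

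Sgsm2 carries a TBC domain, which speeds GTP hydrolysis by Rab proteins of vesicle traffic. At 24 h the vehicle wells of its probe set (1388768_at) ranged from 511 to 692, those at 8 µM from 53.5 to 349 and those at 200 µM from 60.3 to 215. No treated well reached the vehicle range at 24 h. After 48 h vehicle wells had 900, 883, 990, 172 and 678. The wells at 8 µM had 263, 147, 230, 270 and 185. Those at 200 µM had 323, 321, 88.7, 421 and 239. As for Eva1c, replicate 4 was the 1 vehicle well within the treated range. The differences from vehicle were -2.14 and -1.99 at 24 h and -1.48 and -1.27 at 48 h (each ± 0.43). Without replicate 4 the 48 h values were -1.92 and -1.71. The doses differed by 0.15 and 0.21, less than the SE. Of 15 measured relatives with a TBC domain, 2 rose and 1 fell at 8 µM and 24 h, 1 rose and 3 fell at 200 µM and 24 h, 2 rose and 2 fell at 8 µM and 48 h, and 2 rose and 1 fell at 200 µM and 48 h. Without 48 h vehicle replicate 4 the counts were 3 and 2, 2 and 4, 3 and 1, and 3 and 2. Tbc1d23 rose in all 4 (0.48 to 0.84, limma adjusted p = 3e-08 to 0.00025), and Tbc1d8 fell in all 4 (-0.56 to -0.62, limma adjusted p = 3.9e-08 to 2.6e-07). Tbc1d2 rose at 8 µM, by 0.45 (limma adjusted p = 0.0017) at 24 h and 0.31 (0.026) at 48 h. At 200 µM it was at 0.0 and 0.1 and passed at neither time.

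Xpnpep2, membrane-bound aminopeptidase P, removes the first residue of peptides such as bradykinin whose second residue is proline. Its probe set (1368428_at) had vehicle signals of 392, 159, 333, 326 and 372 at 24 h. Signals at 8 µM were 204, 40.3, 34.9, 19.4 and 67.4. Signals at 200 µM were 44.4, 238, 64.5, 170 and 139. At 24 h the groups overlapped because of vehicle replicate 2, at 159, and the highest treated wells. Vehicle signals at 48 h were 282, 201, 255, 358 and 192. With 8 µM they were 171, 52.3, 128, 50.1 and 48.7. With 200 µM they were 18.1, 31.4, 49.4, 48.9 and 39.2. Neither dose overlapped with vehicle at 48 h. The differences were -2.16 and -1.31 at 24 h and -1.49 and -2.36 at 48 h (each ± 0.49), or -1.37 and -2.24 at 48 h without vehicle replicate 4. The lower dose thus had the lower mean at 24 h and the higher dose at 48 h, with overlapping wells both times. With no treated well above the filter signal, the size of these differences depends on the pseudocount, and the 200 µM value at 48 h was -1.65 with a pseudocount of 64.

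Other peptidases that cut at the first residues of peptides or after proline moved both ways. Of 15 measured, 2 rose and 3 fell at 8 µM and 24 h, 2 rose and 4 fell at 200 µM and 24 h, 4 rose and 3 fell at 8 µM and 48 h, and 2 rose and 5 fell at 200 µM and 48 h. Without 48 h vehicle replicate 4 the 48 h counts were 5 and 3 at 8 µM, and 3 and 5 at 200 µM. Anpep, aminopeptidase N, rose in all 4, from 3126 ± 412 in 24 h vehicle wells to 6585 ± 942 at 8 µM (1.07 ± 0.10, limma adjusted p = 8.4e-11) and 4992 ± 231 at 200 µM (0.68, 1.2e-06). At 48 h it rose by 1.82 (8e-17) and 1.53 (1.1e-14). Enpep, which trims angiotensin, rose by 0.41 to 0.65 (limma adjusted p = 4.4e-08 to 0.00014). Dpp4, described with Npy, is also in this list.

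Slc17a2 belongs to a family of anion transporters first described as sodium-phosphate carriers. At 24 h its probe set (1386274_at) had vehicle signals of 528, 306, 493, 366 and 556. In 8 µM wells they were 85.6, 136, 71.4, 245 and 306. In 200 µM wells they were 64.4, 224, 119, 48.0 and 66.8. The vehicle wells were all above the treated wells, although the highest well at 8 µM nearly reached the lowest vehicle well. At 48 h the vehicle wells ranged from 192 to 560, with replicate 4 the lowest, those at 8 µM from 39.5 to 315 and those at 200 µM from 67.8 to 280. The groups overlapped at 48 h. Without replicate 4 the lowest vehicle well was at 307, above all wells at 200 µM and below the highest well at 8 µM. The differences were -1.48 and -2.09 at 24 h and -1.59 and -1.35 at 48 h (each ± 0.46), or -1.80 and -1.56 at 48 h without replicate 4. The doses differed by -0.61 at 24 h and 0.24 at 48 h, with overlapping wells.

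Differences of Slc17a1, Slc17a3 and Slc17a4 were smaller than those of Slc17a2, which was itself chosen for large differences. Among the SLC17 relatives, these genes stood lower mainly at 8 µM. Of 5 measured, 4 fell at 8 µM at each time, and 1 fell at 200 µM at each time (2 at 24 h without 48 h vehicle replicate 4, when Slc17a1 also passed). That gene was Slc17a5, the lysosomal sialic acid exporter, which fell in all 4 groups (-0.29 to -0.45, limma adjusted p = 0.00028 to 0.02) and is named after its values were seen. Slc17a6, named likewise, passed in no treated group (0.06 and -0.46 at 24 h, -0.54 and -0.58 at 48 h). Slc17a1 had mean signals of 3131 ± 135 with vehicle, 2314 ± 116 with 8 µM and 2731 ± 164 with 200 µM at 24 h. The 48 h means were 3029 ± 221, 1913 ± 235 and 2760 ± 232 in the same order. Its differences were -0.43 (limma adjusted p = 2.4e-05) and -0.20 (0.051) at 24 h, and -0.66 (7.6e-09) and -0.13 (0.17) at 48 h. Slc17a3 was at -0.44 (limma adjusted p = 0.00013) and -0.15 (0.21), then -0.42 (0.00017) and 0.16 (0.16). Slc17a4 was at -0.45 (limma adjusted p = 0.0002) and -0.07 (0.64), then -0.66 (4e-07) and -0.10 (0.44). The difference between the doses was tested by limma. The 200 µM wells were higher at 48 h for Slc17a1 (0.53, adjusted p = 1.1e-05), Slc17a3 (0.58, 2.1e-05) and Slc17a4 (0.56, 9.1e-05). At 24 h they were higher for Slc17a4 (0.38, 0.012), while Slc17a1 (0.24, 0.083) and Slc17a3 (0.29, 0.06) did not pass. Without 48 h vehicle replicate 4, Slc17a1 and Slc17a3 also passed at 24 h (limma adjusted p = 0.048 and 0.032). Slc17a3 lies next to Slc17a2 on the GRCr8 map.

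**Figure D2:**
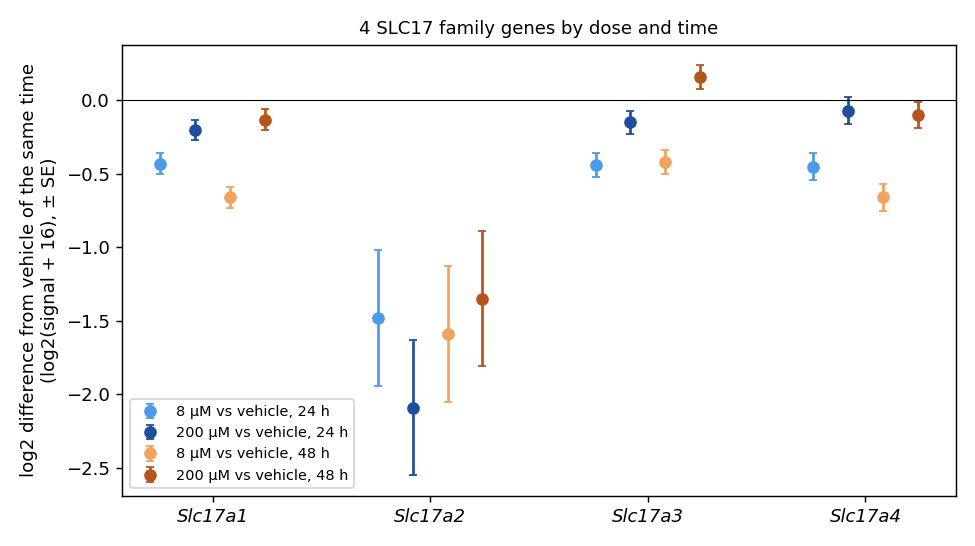
Log2 difference from vehicle of the same time, with its SE, for 4 SLC17 genes in the 4 treated groups (points). The measured relatives Slc17a5 and Slc17a6 are not shown. Slc17a1, Slc17a3 and Slc17a4 lie lower at 8 µM, between -0.42 and -0.66, than at 200 µM, between -0.20 and 0.16, while Slc17a2 lies between -1.35 and -2.09.

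Abca8a is an ABC transporter of the lipid-moving A subfamily. At 24 h its probe set (1390783_at) had vehicle signals of 1213, 1647, 1455, 1527 and 1452. The wells at 8 µM had 284, 414, 412, 443 and 511. Those at 200 µM had 627, 769, 539, 564 and 195. Both doses lay below all vehicle wells, and 4 of 5 wells at 200 µM were above those at 8 µM. At 48 h the vehicle wells had 2054, 1682, 1612, 698 and 2444. Signals at 8 µM were 137, 380, 60.4, 53.9 and 308. Signals at 200 µM were 660, 795, 280, 386 and 620. The wells at 8 µM were separate from vehicle, and those at 200 µM overlapped with it through vehicle replicate 4, at 698, alone. The differences were -1.80 and -1.53 at 24 h and -3.31 and -1.58 at 48 h (each ± 0.39), or -3.60 and -1.87 at 48 h without that well. At 8 µM and 48 h Abca8a ranked 5th from the lowest of all genes. The doses differed by 1.73 at 48 h, the 4th highest of all genes, with 2 wells at 8 µM (380 and 308) above the lowest at 200 µM (280).

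Its neighbour on the GRCr8 map, Abca8, is a close relative, and a probe set may read RNA of both. Abca8 fell at 24 h, with differences of -0.32 (limma adjusted p = 0.029) and -0.48 (0.001). At 48 h it was at -0.11 (0.46) for 8 µM and fell by 0.30 (0.029) for 200 µM, a value of -0.22 (0.1) without vehicle replicate 4. Of 6 measured ABCA relatives, 1 rose and 3 fell at 8 µM and 24 h, 1 rose and 2 fell at 200 µM and 24 h, and 2 rose and 2 fell in each treated group at 48 h (2 and 1 at 200 µM without vehicle replicate 4). Abca4, a retinoid transporter, rose in all 4, by 0.86, 0.71, 1.66 and 1.44 (each ± 0.15, limma adjusted p = 1.1e-10 to 0.00061). Abca1, which exports cholesterol, fell at 8 µM, with differences of -0.67 (limma adjusted p = 1.2e-07) at 24 h and -0.33 (0.0025) at 48 h. At 200 µM it fell by 0.27 (limma adjusted p = 0.018) at 24 h and was at -0.10 (0.41) at 48 h.

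Slc13a2 is the sodium-coupled transporter of dicarboxylates and citrate known from kidney and gut. At 24 h its probe set (1368661_at) had vehicle signals of 315, 158, 444, 135 and 245. With 8 µM they were 350, 220, 182, 108 and 396. With 200 µM they were 389, 89.5, 356, 94.9 and 345. The 3 groups covered the same range at 24 h. After 48 h vehicle wells had 286, 268, 508, 1140 and 103. In 8 µM wells they were 31.8, 61.6, 192, 100 and 119. In 200 µM wells they were 493, 264, 418, 367 and 502. The 2 doses were separate at 48 h, while vehicle overlapped with both and held the highest signal, in replicate 4. The differences from vehicle were -0.05 and -0.14 at 24 h and -1.80 and 0.20 at 48 h (each ± 0.49). Without replicate 4 the 48 h values were -1.38 and 0.62. The doses differed by 2.00 at 48 h, the 3rd highest of all genes, and by -0.09 at 24 h. In its order of levels 200 µM at 48 h came first and 8 µM at 48 h last, and all neighbours in that order overlapped.

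Its measured relatives showed no common direction. Slc13a5, the citrate transporter of liver, fell at 8 µM and 24 h by 0.73 (limma adjusted p = 0.027) and was at -0.44, -0.09 and 0.20 in the other groups. Slc13a4 fell at 200 µM and 48 h by 1.09 (limma adjusted p = 0.00065). Slc13a3 was between -0.05 and 0.34 and passed in no group, and Slc13a1 was below the filter.

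**Figure D3:**
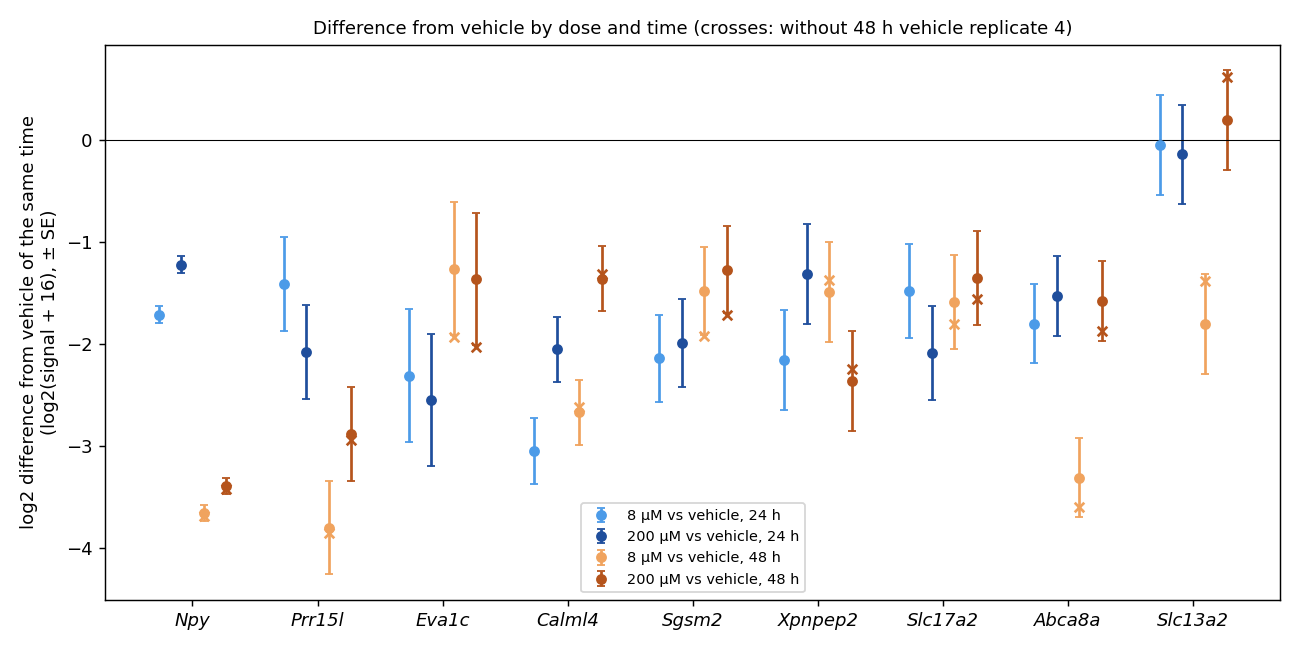
Log2 difference from vehicle of the same time, with its SE, for the 9 genes in the 4 treated groups (points), and the 48 h values without vehicle replicate 4 (crosses). At 48 h Calml4, Abca8a and Slc13a2 lie well lower at 8 µM (-2.67, -3.31 and -1.80) than at 200 µM (-1.36, -1.58 and 0.20), and Npy and Prr15l lie lowest at 48 h.

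Across the members the 200 µM wells were not lower than the 8 µM wells as a rule. The difference between doses was negative for 4 and positive for 5 at 24 h (median 0.15), and negative for 2 and positive for 7 at 48 h (median 0.27). For no member were the wells at 200 µM all below those at 8 µM. In the order of the 6 group levels, Sgsm2, Calml4 and Abca8a each had vehicle at both times on top, and the step from 24 h vehicle to the next group, 200 µM at 48 h, was the only one without overlap. For Prr15l only the step between the vehicle groups was free of overlap, and for Eva1c, Xpnpep2 and Slc17a2 all neighbours overlapped. Of the 100 highest differences between doses at 48 h, 4 were those of Slc13a2, Abca8a, Calml4 and Prr15l, and Xpnpep2 was among the 100 lowest. These contrasts helped to choose the members, so the counts are a description.

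The change over time in vehicle wells is given as a description, with no test of the members, because the 48 h vehicle wells took part in choosing them and, for several, in passing the filter. Npy was higher at 48 h than at 24 h by 0.63 ± 0.08 (SE), with all 5 wells at 48 h above all 5 at 24 h. Prr15l was higher by 1.51 ± 0.46, also with separate wells, from a mean of 306 ± 114 (SD, n = 5) to 869 ± 166. Among all 11545 genes these differences ranked 379th and 15th from the highest. The share of all genes with separate vehicle wells was not counted, so nothing is read from that separation. Without vehicle replicate 4 these differences were 0.65 and 1.57. With arrays centred on their medians the Npy difference was 0.49. For the other 7 members the groups overlapped, with differences between -0.32 and 0.52 and SEs of 0.32 to 0.65. Leaving out replicate 4 moved Eva1c from 0.13 to 0.80, Sgsm2 from 0.03 to 0.48, Abca8a from 0.11 to 0.40 and Slc13a2 from 0.52 to 0.10.

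**Figure D4:**
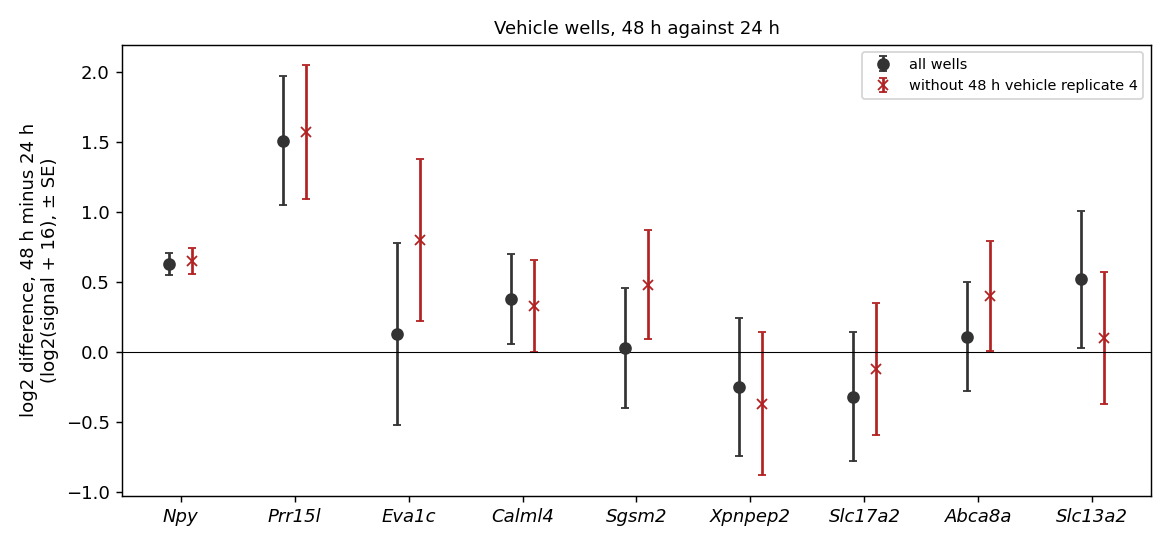
Log2 difference of 48 h from 24 h vehicle wells with its SE for the 9 genes, over all wells (circles) and without 48 h vehicle replicate 4 (crosses). Over all wells Npy (0.63 ± 0.08), Prr15l (1.51 ± 0.46), Calml4 (0.38 ± 0.32) and Slc13a2 (0.52 ± 0.49) lie above 0 by more than their SE. The crosses of Eva1c (0.80), Sgsm2 (0.48), Abca8a (0.40) and Slc17a2 (-0.12) lie above their circles. That of Slc13a2 (0.10) lies below its circle.

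The treated wells did not show this higher Npy level at 48 h, since their Npy means went from 2802 to 1109 at 8 µM and from 3926 to 1347 at 200 µM between 24 h and 48 h. The larger Npy differences at 48 h thus came with both a higher vehicle level and a lower treated level. For Prr15l the mean at 8 µM went from 125 to 47.0 and that at 200 µM from 60.2 to 123, all under the filter signal.

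The genes whose log2 signals were most like each member over the 30 arrays were found by Pearson's r, as a description that rests mainly on shared group differences. Npy was most like Apoa5 (r = 0.974), an apolipoprotein of triglyceride control, S100a6 (0.974) and fibronectin Fn1 (0.967). After group means were removed these were 0.32, 0.62 and 0.20. Eva1c was most like the tubulin Tubb5 (0.881), the tropomyosin Tpm4 (0.861) and Maff (0.859), and within groups these were 0.79, 0.76 and 0.76. Abca8a was most like Marveld1 (0.914, and 0.71 within groups), Ugt2b35 (0.871) and Gamt (0.855). Calml4 was most like Ptprj (0.891), Lrp4 (0.888) and Idh2 (0.885), and within groups Ptprj was at 0.02. For Prr15l these genes were Cryab (0.881), Spns2 (0.876) and Pmp22 (0.875), for Sgsm2 Dpysl2 (0.858), Ptprj (0.852) and Il6st (0.85), and for Xpnpep2 Rnd3 (0.84), Kdm3b (0.801) and Rnf217 (0.799). Slc17a2 was most like the liver enzyme genes Sardh (0.822) and Fah (0.819) and Lims2 (0.82). For Slc13a2 the highest r was 0.675, with LOC102548022, and none of its top 3 stayed in the top 3 without vehicle replicate 4. Over all members 15 of the 27 genes stayed. Those that did not, besides the 3 of Slc13a2, were Pmp22 for Prr15l, Lrp4 and Idh2 for Calml4, Dpysl2 and Il6st for Sgsm2, Kdm3b and Rnf217 for Xpnpep2, Lims2 for Slc17a2 and Gamt for Abca8a. Among the 36 pairs of members r was 0.03 to 0.79 (median 0.56) over all wells and -0.47 to 0.49 (median -0.02) within groups. Without 48 h vehicle replicate 4 the within-group r of these pairs was -0.35 to 0.40 (median -0.06). For the like genes named above, the within-group r was taken over all 30 arrays only.

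The protein-coding neighbours of the 9 genes on GRCr8 were also measured where possible. Of 18 neighbours 12 had a kept probe set. By limma 4 fell at 8 µM and 24 h and 2 at 200 µM and 24 h. At 48 h 4 fell at 8 µM and 1 at 200 µM. The medians in that order were -0.30, -0.22, -0.18 and -0.08, and 0 rose in each contrast. Of all genes 24.9%, 24.7%, 35.6% and 33.8% changed in these contrasts, in either direction. The neighbours that fell include Slc17a3 at 8 µM at both times, and Abca8 at both doses at 24 h and at 200 µM and 48 h. Both were already counted above as relatives, and a probe set may read RNA of both Abca8 and Abca8a. Whether position played a part was not tested. Without 48 h vehicle replicate 4 the counts of neighbours that fell were 5, 4, 4 and 2, and at most 2 rose in a contrast. Beside Sgsm2, Tsr1 was at -0.37 (limma adjusted p = 0.0027) at 8 µM and 24 h and Mnt at -0.41 (0.0043) at 8 µM and 48 h. Beside Calml4, Cln6 was at -0.34 (limma adjusted p = 0.039) and Pias1 at 0.16 (0.32) at 8 µM and 24 h. Hnf4a, which encodes a hepatocyte transcription factor whose motif was searched above, passed in no treated group over all wells (-0.09 to 0.12). Without vehicle replicate 4 it fell at 8 µM and 48 h (-0.15, limma adjusted p = 0.028). In vehicle wells it fell from 10790 ± 671 at 24 h to 8095 ± 832 at 48 h (-0.42 ± 0.06, limma adjusted p = 2.8e-05), a contrast in which 9.87% of all genes changed in either direction.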

How the data were processed

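An Affymetrix rat array was used for the total RNA of each of 30 wells. The deposited values are intensity values, 1 linear signal per probe set, made by the authors with MAS5 per the submitters' processing notes. The version and the scaling target are not given in the sources used here. The 2% trimmed mean was 1500.45 to 1500.7 on every array, so arrays were not rescaled. Probe sets were named from the platform annotation: 20826 had 1 symbol, 436 several and 9780 none, and 57 were controls. Probe sets stayed in where the signal exceeded the 40th percentile (281.361) in at least 5 arrays. Of a gene's probe sets the one with the highest mean was used, which gave 11545 genes.

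Values of log2(signal + 16) of all arrays entered 1 limma fit with a mean for each group (lmFit, contrasts.fit, eBayes with a variance trend; limma 3.58.1, R 4.3.3). Tests were two-sided and adjusted by Benjamini-Hochberg over all genes, with a threshold of 0.05, and were tested on simulated data. "Rose", "fell" and "changed" refer to it. The change of the members over time in vehicle wells was planned as a test and is given as a description, since those wells entered the choice. The members, the lists of related genes and the markers were chosen with earlier results of these data known. Relatives were named by rule: up to 3 of each list with the largest statistic against vehicle, for likeness the 3 genes with the highest r, and 4 PPARα targets. Chromosomal neighbours were added by position, and other names were picked after their values were seen. The number of arrays limits the precision, and depth does not apply to these intensities. Alternatives were quantile normalization, median centring, pseudocounts of 1 and 64, other filters, the mean of probe sets or each probe set alone, fewer groups in the fit, a block for runs of 6 arrays, array weights, no variance trend, and leaving out each array. Tables were made with Python 3.11.15, pandas 2.3.3 and numpy 2.4.6, and plots with matplotlib 3.10.9.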

Additional observations from a re-analysis of the deposited data

Results flagged for a closer look

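In 6 of the 54 groups of 5 wells, 1 well's gap to its nearest neighbour made up more than 0.71 of the group's range. Chance gives a gap of that size in about 5% of groups. Gaps and ranges were taken on the log2 scale of the differences, while the signals given here are linear. Both flags in 48 h vehicle wells fell on replicate 4, the array that stood apart in its median signal: its Eva1c signal of 41.5 was lowest, with a gap of 0.956 of the range, and its Sgsm2 signal of 172 was lowest, with 0.779. In 24 h vehicle wells the Xpnpep2 signal of 159 in replicate 2 was lowest (0.791). At 200 µM and 24 h the Calml4 signal of 65.3 in replicate 3 (0.852) and the Abca8a signal of 195 in replicate 5 (0.736) were lowest. At 8 µM and 24 h the Npy signal of 3283 in replicate 1 was highest (0.749), which still left it below every well at 200 µM.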

How the results depend on the processing

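Of 36 member differences from vehicle, 33 kept their sign under every alternative. The other 3 were those of Slc13a2 other than at 8 µM and 48 h. Over all 63 member values 52 kept their sign. The members were chosen for large differences in these same arrays, so the kept signs are a description and lend no support. A value counted as moved when it shifted by more than the gene's own SD within groups. A pseudocount of 64 moved Prr15l at 8 µM and 48 h to -3.06 and Xpnpep2 at 200 µM and 48 h to -1.65. Median centring moved Npy at 48 h to -3.47 and -3.22. With a pseudocount of 64 every member difference from vehicle was smaller in size. Eva1c, with its wide spread, did not count as moved, yet its 24 h values became -1.65 at 8 µM and -1.82 at 200 µM. Median centring shifted the median of all genes from -0.06 to 0.13 at 8 µM and 48 h, from -0.05 to 0.12 at 200 µM and 48 h, and from 0.02 to -0.12 for vehicle over time.

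The number of genes called was 1462 (2870 in the fit reported) for 8 µM and 1355 (2853) for 200 µM against vehicle at 24 h under median centring. For 200 µM against 8 µM it was 39 (349) at 24 h and 96 (553) at 48 h, and for vehicle over time 300 (1139). With only the compared groups in the fit it was 647 for the doses at 24 h and 342 for vehicle over time. With array weights it was 750 and 1146 for the doses. Leaving out 1 array gave 244 to 676 calls between doses at 24 h and 398 to 1037 at 48 h, the highest in both cases without 48 h vehicle replicate 4. The cause of these shifts was not tested. The filter at the 60th percentile removed Eva1c, Xpnpep2, Slc17a2 and Slc13a2. The labels carry no replicate numbers, so no wells were paired. With a block for each run of 6 array numbers, which holds each group once, the counts were 2913 and 2925 against vehicle at 24 h, 4162 and 3971 at 48 h, 392 and 610 between doses and 1222 for vehicle over time. Most treated signals of the members other than Npy and Abca8a lay below the filter signal, while 15 of the 20 of Abca8a lay above it. The spread within groups was wide for all members other than Npy (log2 SD 0.52 to 1.07).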
